A study of Homo sapiens with 40 samples.

Results

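The response of HepaRG cells to glyphosate at 1 mg/L was examined by RNA sequencing as a comparison of 5 treated libraries with 5 solvent control libraries, chosen by the treatment in their labels. These are 10 of the 40 libraries of the series, which fall into 8 groups. HepaRG (HPR 116) is a human hepatic line supplied as differentiated cells. All groups were kept from day 8 to day 14 in a test medium with 2% fetal bovine serum and 1% DMSO, so that the control cells carried the same serum and solvent. The other glyphosate groups, at 10 µg/L and at 0.1 g/L, and a Roundup group at 10 µg/L were sequenced with the same controls and are used here to estimate the spread and to place the middle dose. The labels do not say whether the 5 libraries of a group came from separate cultures, so the p-values measure the spread between these libraries, which may be technical.

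Glyphosate, N-(phosphonomethyl)glycine, is a herbicide that blocks EPSP synthase, an enzyme of the shikimate pathway with which plants and many microbes make aromatic amino acids and which human cells lack. Differentiated HepaRG cultures hold hepatocyte-like cells, which secrete plasma proteins and carry drug-metabolising enzymes, next to biliary-like cells. Hepatocytes report on foreign compounds through receptors such as the aryl hydrocarbon receptor and the pregnane X receptor, and on injury through the oxidative stress, unfolded protein, DNA damage and acute-phase programmes.

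No gene differed past the threshold between glyphosate at 1 mg/L and control. FPKM, fragment numbers adjusted for transcript length and library size, were added up for each gene name, and 9533 of 56568 gene names passed the filter on variance. A linear model in limma on log2(FPKM + 1) gave 0 genes with a Benjamini-Hochberg adjusted p under 0.05, which is 0% of the genes tested, and the smallest adjusted p was 0.309, for ELF1. An ordinary linear model also gave 0 genes, with 84 before adjustment. In limma before adjustment, 125 genes (1.31%) had a p under 0.05, of which 97 (1.02%) were higher and 28 (0.294%) lower in treated cells. The 95% confidence interval of the difference lay inside a 2-fold change in either direction for 8069 genes (84.6%), so that for most tested genes a doubling or a halving of FPKM + 1 was outside the interval. For the remaining genes the interval reached beyond a 2-fold change. A fold change on this scale understates the change of genes with low FPKM.

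The cultures had the hepatic character their label gives them. ALB, which encodes serum albumin, had 10771, 12241, 10883, 12989 and 9144 FPKM in the 5 control libraries and 11222, 12750, 12271, 15424 and 12672 FPKM in the 5 treated libraries. The groups overlapped, with a log2 difference of 0.20 (SE 0.25). Of the 20 hepatocyte markers, 18 passed the filter and 15 of these had an interval inside a 2-fold change. KRT19, a keratin of biliary cells, had 309, 378, 391, 249 and 189 FPKM in control and 351, 381, 314, 352 and 284 FPKM in treated libraries, with a log2 difference of 0.19 (SE 0.27). Of the 12 biliary and progenitor markers 5 were tested, and 5 of 5 had an interval inside a 2-fold change. In all 10 libraries, 4 of the 12 were under 1 FPKM. Of the 10 mesenchymal markers 6 were tested, and 3 of the 10 were under 1 FPKM in all 10 libraries. LUM, a matrix proteoglycan, led this list at 50.2 ± 14.0 FPKM in control and 58.1 ± 5.08 FPKM in treated cells (SD, n = 5). Markers of other cell types were low. Of the 8 endothelial markers, 7 were under 1 FPKM in all 10 libraries, and the list summed to between 0.943 and 5.27 FPKM in control and between 2.02 and 3.03 FPKM in treated libraries. Of the 8 leukocyte markers, 5 were under 1 FPKM in all 10 libraries, and the list summed to between 2.65 and 10.5 FPKM in control and between 3.42 and 8.41 FPKM in treated libraries. In bulk RNA, fewer cells of a type and less RNA per cell cannot be told apart.

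One control library stood apart. The FPKM of control replicate 5 summed to 299809, against 407618 to 471687 in the other control libraries and 385711 to 475526 in the treated libraries. Its median gene lay at -0.60 from the control mean on the log2 scale, and its score on the first principal component of the 10 libraries, which held 36.6% of the variance, was 72.7 where the others lay between -25 and 10.9. Transcripts assembled without a gene name took 23.5% of its FPKM, against 11.5 to 16.6% in the other 9 libraries. Among treated libraries, replicates 2 and 3 had 34.7% and 26.7% of their FPKM in the listed structural RNAs. The other 3 had 20.5 to 21.4% and the controls 21.5 to 23.4%. The list held RN7SL1 but not AL139099.5, another name at the same locus. Of these 10 libraries, only treated replicates 2 and 3 had RN7SL1 above 0. Of 12 library measures, which covered sums, shares of RNA classes, marker levels and 2 principal components, none separated the groups. The smallest p was for the number of genes above 0, at 29591 ± 1815 in control and 31234 ± 735 in treated libraries (SD, n = 5, 2-sided exact permutation test, p = 0.0794, adjusted over the 12 measures 0.952). The smallest p this design allows is 0.00794.

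**Figure D1:**
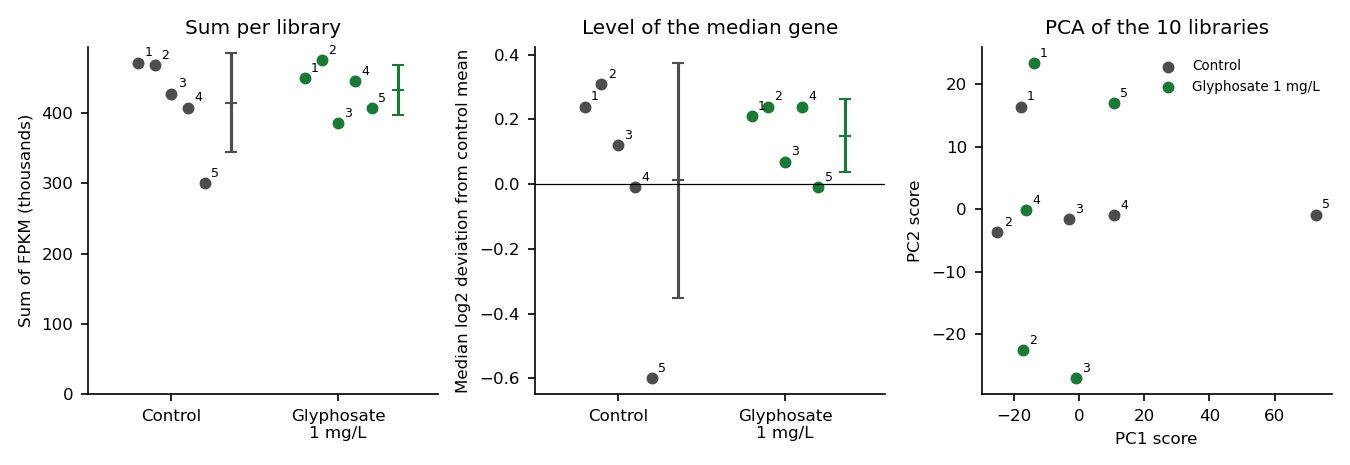
Sum of FPKM per library (left), median over genes of the log2 deviation from the control mean (middle) and the first 2 principal components (right) for 5 control and 5 glyphosate 1 mg/L libraries, numbered by replicate. Bars give mean ± SD. Control replicate 5 lies below the other 9 libraries in the left and middle panels and at a PC1 score of 72.7 on the right.

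The distribution of effects was narrow and shifted as a whole. The median log2 difference, treated minus control, was 0.14, and the middle 90% of genes lay between -0.22 and 0.46. A difference above 0 was found for 8001 genes (83.9%). Beyond 0.5 on the log2 scale lay 530 genes (5.56%), 393 of them higher and 137 lower. Beyond 1 lay 77 genes (0.808%), 57 higher and 20 lower, and beyond 2 lay 7 genes (0.0734%). The common shift was absent without control replicate 5. Without this library the median difference was -0.01, 45.3% of genes had a difference above 0, and the genes with an unadjusted p under 0.05 numbered 98, of which 50 were higher and 48 lower. No gene passed the adjusted threshold in that fit. The direction of the small p-values also moved with the scaling. On the deposited FPKM 77.6% of them were higher in treated cells, and 95.3% after scaling libraries to their 75th percentile. Scaling without the listed structural and mitochondrial RNAs gave 91.6%. That scaling left out RN7SL1 but kept AL139099.5, another name at the same locus. Quantile normalization gave 50.3% and left a median difference of 0.00618. Differences below from all 10 libraries are therefore to be read against 0.14, not against 0 alone. Their p-values test against 0, and their intervals contain this shift.

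The spread between libraries set what could be seen. The standard error of the difference had a median of 0.27 on the log2 scale, with 90% of genes between 0.24 and 0.45, and the 95% interval reached a median of 0.56 to either side. The median SD between libraries was 0.42 in the control group and 0.21 in the treated group, and 0.23 in the control group without replicate 5. The control SD was the larger of the pair for 86.6% of genes, and for 58.3% without that library. Among the genes that passed the filter, precision changed with the level of the gene. The filter kept genes with a variance of FPKM above 1, so genes of low level entered only with a wide spread. The part of the filter in these shares was not tested. Of 679 genes with a mean between 1 and 3 FPKM, 45.9% had an interval inside a 2-fold change and the median standard error was 0.36. The share was 86% of 4745 genes between 3 and 10 FPKM, 91.1% of 2920 genes between 10 and 30 FPKM, and 82% of 283 genes from 100 FPKM upwards. Unadjusted p-values under 0.05 were found for 4.86% of the genes between 1 and 3 FPKM and for 0.353% of those from 100 FPKM upwards.

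**Figure D2:**
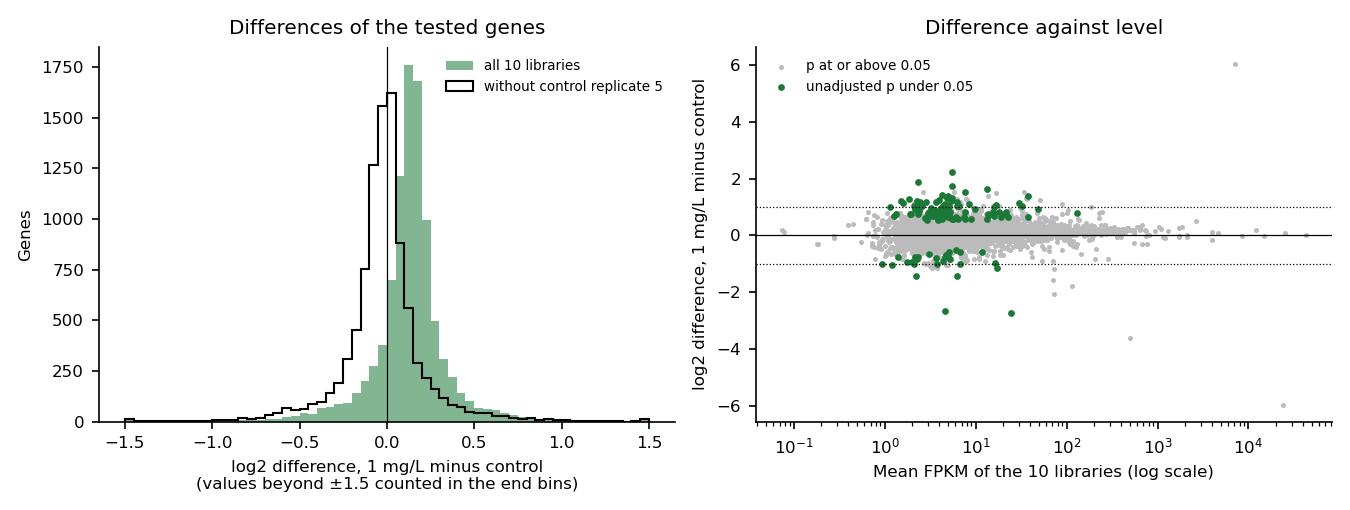
Left, number of genes by log2 difference (1 mg/L minus control) with all 10 libraries (filled) and without control replicate 5 (line). The filled distribution is centred on 0.14 and the line on -0.01. Right, the difference of each gene against its mean FPKM on a log axis, with the 125 genes of unadjusted p under 0.05 in green and dotted lines at a 2-fold change.

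The 8 genes with the smallest p in each direction were named whether or not they passed the threshold, and none did. Groups without overlap were found for 14 genes (0.147%) with every treated library above every control library and for 3 genes (0.0315%) with every treated library below. ELF1, a transcription factor of the ETS family (chromosome 13, 40932028 to 41061440, GRCh38), had 5.86, 0.901, 0.332, 1.56 and 0.152 FPKM in control and 9.46, 10.1, 9.35, 9.56 and 8.03 FPKM in treated libraries. Control replicate 1 was the highest of its group, and all treated libraries were above it. The log2 difference was 2.23 (SE 0.45) and the limma adjusted p was 0.309. RACGAP1, a GTPase-activating protein of the cytokinesis machinery (chromosome 12, 49976923 to 50033136), had 3.19, 13, 2.19, 1.88 and 1.31 FPKM in control and 10.9, 12.6, 7.69, 12.8 and 11.6 FPKM in treated libraries. Control replicate 2 overlapped the treated group, and the log2 difference was 1.52 (SE 0.35). TBC1D15, a GTPase-activating protein for Rab proteins (chromosome 12, 71839707 to 71927248), had 1.21, 5.47, 1.75, 1.56 and 2.72 FPKM in control and 8.01, 8.25, 8.02, 5.73 and 5.69 FPKM in treated libraries. The groups did not overlap, by a margin of 5.47 to 5.69 FPKM, and the log2 difference was 1.30 (SE 0.31). STEAP2, a metalloreductase, had 4.77 FPKM in control replicate 1, listed above all treated libraries (3.23 to 3.82 FPKM), and 0 to 1.37 FPKM in the other 4 controls. Its log2 difference was 1.18 (SE 0.32). The other higher genes of this set were ZNF217, a zinc finger transcription factor, with a log2 difference of 0.86 (SE 0.25), RNASET2, a lysosomal ribonuclease, with 0.94 (SE 0.27), TVP23C, a Golgi membrane protein, with 1.17 (SE 0.35), and SSX2IP, a centrosomal and junctional protein, with 1.04 (SE 0.31). RNASET2 and SSX2IP were also without overlap. Single control libraries decided some of these p-values: in limma, ELF1 and STEAP2 had an adjusted p of 0.0106 each without control replicate 1, with differences of 2.64 and 1.57, and RACGAP1 had an adjusted p of 0.00166 without control replicate 2, with a difference of 1.96.

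NUDT4, a phosphohydrolase of diphosphoinositol polyphosphates (chromosome 12, 93377883 to 93408146), had 8.41, 9.90, 8.24, 8.81 and 5.53 FPKM in control and 0.0327, 0, 0, 0 and 4.76 FPKM in treated libraries. All treated libraries were below all controls, and treated replicate 5 lay close to the lowest control. The log2 difference was -2.66 (SE 0.62). CDK5RAP2, a centrosomal protein (chromosome 9, 120388869 to 120580170), had 15.5, 30.9, 30, 18.8 and 14.4 FPKM in control and 7.67, 13, 11.7, 11.4 and 8.16 FPKM in treated libraries, again without overlap, and the log2 difference was -0.96 (SE 0.29). SRPRB, the membrane-anchoring subunit of the receptor for signal recognition particles (chromosome 3, 133784033 to 133825772), had 28.2, 28.0, 22.4, 22.5 and 15.1 FPKM in control and 12.4, 25.5, 7.15, 6.07 and 6.26 FPKM in treated libraries. Treated replicate 2 lay within the control range, and the log2 difference was -1.13 (SE 0.41). AK4, a mitochondrial adenylate kinase, had 5.5, 11, 6.39, 12.1 and 8.90 FPKM in control and 0.804, 7.68, 8.69, 1.58 and 0.317 FPKM in treated libraries, so that replicates 2 and 3 of the treated group stood with the controls (log2 difference -1.44, SE 0.52). EIF3CL, a near-identical copy of the translation initiation gene EIF3C with which it can share reads, had 22.7 to 47.5 FPKM in control. In treated libraries it had 0.535, 0.00369, 38.7, 43.3 and 0 FPKM, and its difference is uncertain for that reason (-2.73, SE 0.96). RABL6, a Rab-like GTPase, differed by -0.76 (SE 0.29), TCF20, a transcriptional coregulator, by -1.0 (SE 0.40), and PRKAG1, a regulatory subunit of AMP-activated protein kinase, by -0.99 (SE 0.41). The groups overlapped for these 3 genes.

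**Figure D3:**
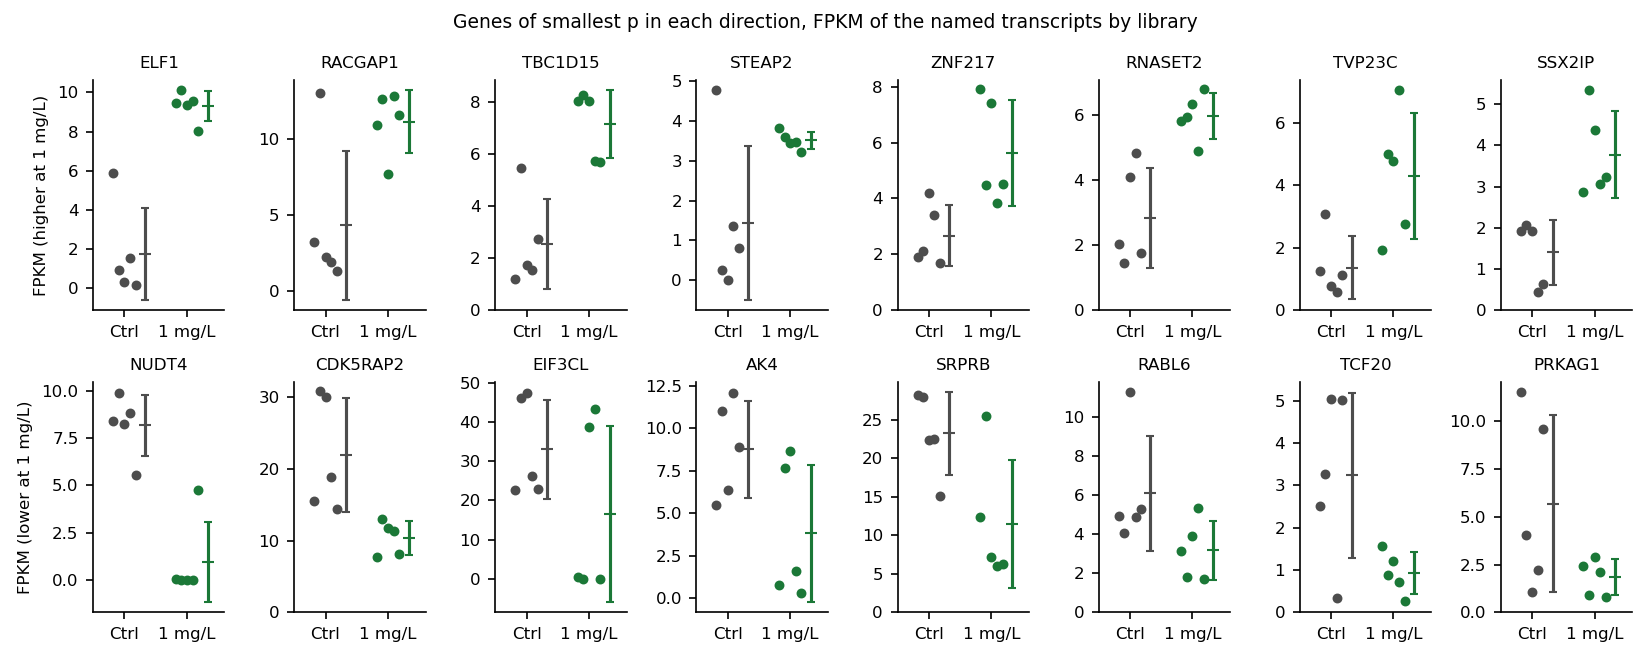
FPKM summed by gene name in the 5 control (grey) and 5 treated (green) libraries, with mean ± SD, for the 8 higher (top) and 8 lower (bottom) genes of smallest p. ELF1, TBC1D15, RNASET2, SSX2IP, NUDT4 and CDK5RAP2 do not overlap between groups, and the other 10 do.

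At these loci, the FPKM of the gene's name and of unnamed transcripts differed in opposite directions. The assembly holds 35782 transcripts without a gene name among 234960, many at the loci of known genes, and a gene sum leaves them out. At 16 of the 16 loci the mean of the unnamed transcripts differed in the opposite direction to the named ones. At NUDT4 the unnamed transcripts had 0.00798, 0.0126, 0, 0.0169 and 0 FPKM in control and 4.48, 5.04, 4.58, 5.58 and 2.24 FPKM in treated libraries. The treated library with the lowest unnamed value was replicate 5, in which the named transcripts were present. Over the whole locus, NUDT4 had 8.18 ± 1.62 FPKM in control and 5.34 ± 1.02 FPKM in treated libraries (SD, n = 5), with a log2 difference of -0.53 (SE 0.25, limma adjusted p = 0.93). At SRPRB the unnamed transcript had at most 0.059 FPKM in control and 8.28, 0.0271, 8.13, 10.3 and 8.45 FPKM in treated libraries, low in the one treated library whose named value stood with the controls. The SRPRB locus had 23.3 ± 5.35 FPKM in control and 18.5 ± 4.59 FPKM in treated libraries (SD, n = 5). At CDK5RAP2 the unnamed transcripts had a mean of 1.80 FPKM in control and 11.3 FPKM in treated libraries, and the locus differed by -0.08 (SE 0.26). At AK4 the locus difference was 0.21 (SE 0.26), above 0 where the named transcripts gave -1.44. At EIF3CL the unnamed transcripts had 23.3, 2.99, 2.12, 8.81 and 0.825 FPKM in control. In treated libraries they had 35.7, 37.2, 1.57, 1.7 and 27.1 FPKM, low in the libraries with high named values. The EIF3CL locus, which also holds NPIPB6, differed by -0.10 (SE 0.27).

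The higher genes showed the mirror image. At RACGAP1 the unnamed transcripts had 12, 0, 7.38, 8.29 and 4.31 FPKM in control and 1.10, 0.146, 3.25, 1.96 and 0.104 FPKM in treated libraries. The control at 0 was replicate 2, in which the named transcripts had 13 FPKM. The locus had 10.7 ± 3.64 FPKM in control and 12.4 ± 1.45 FPKM in treated libraries (SD, n = 5), a log2 difference of 0.25 (SE 0.26). At STEAP2 the unnamed transcripts reached 3.58 FPKM in control and 0.0181 FPKM in treated libraries, and the locus differed by 0.30 (SE 0.27). At TBC1D15 the unnamed transcripts had 3.92 ± 1.45 FPKM in control and 2.54 ± 1.83 FPKM in treated libraries (SD, n = 5). The TBC1D15 locus differed by 0.58 (SE 0.25, limma adjusted p = 0.93). The ELF1 locus, whose sum includes the named transcripts by which the gene was chosen, did not overlap between groups, with 9.97, 7.94, 12.3, 11.1 and 6.83 FPKM in control and 16.3, 16.2, 14.8, 15.8 and 12.9 FPKM in treated libraries. The ELF1 locus difference was 0.63 (SE 0.25, limma adjusted p = 0.93). Over the 15 loci that passed the filter, the difference was closer to 0 than that of the named transcripts at 15. It ranged from -0.53 to 0.63 and had the other sign at 2, AK4 and TCF20. An unadjusted p under 0.05 in limma was found at 3 of the 15, ELF1, TBC1D15 and NUDT4. The loci of RNASET2, TVP23C, EIF3CL, RABL6 and PRKAG1 also hold other gene names, whose FPKM are part of the sum. At RABL6 the locus had a control mean of 51.3 FPKM, where RABL6 had 6.09 FPKM. Of the 125 genes with an unadjusted p under 0.05, 115 had a locus that was tested. Their median absolute difference was 0.87 by gene name and 0.25 by locus. At the locus, 11 of these 115 had an unadjusted p under 0.05 in the same direction. Over all 9477 loci tested, 44 had an unadjusted p under 0.05 in either direction. These genes, like those named above, were chosen by their named difference, so a smaller one at the locus is in part given by that choice. The locus sum also includes the named transcripts, so a small p there is in part given as well. Over all 9335 genes with a tested locus, the median absolute difference was 0.16 by gene name and 0.15 by locus. Unnamed transcripts differed opposite to the named ones for 104 of 118 genes (88.1%) of unadjusted p under 0.05 that had any, and for 57.3% of all 5586 such genes tested. The part of the assignment of reads between transcripts in these differences was not tested.

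**Figure D4:**
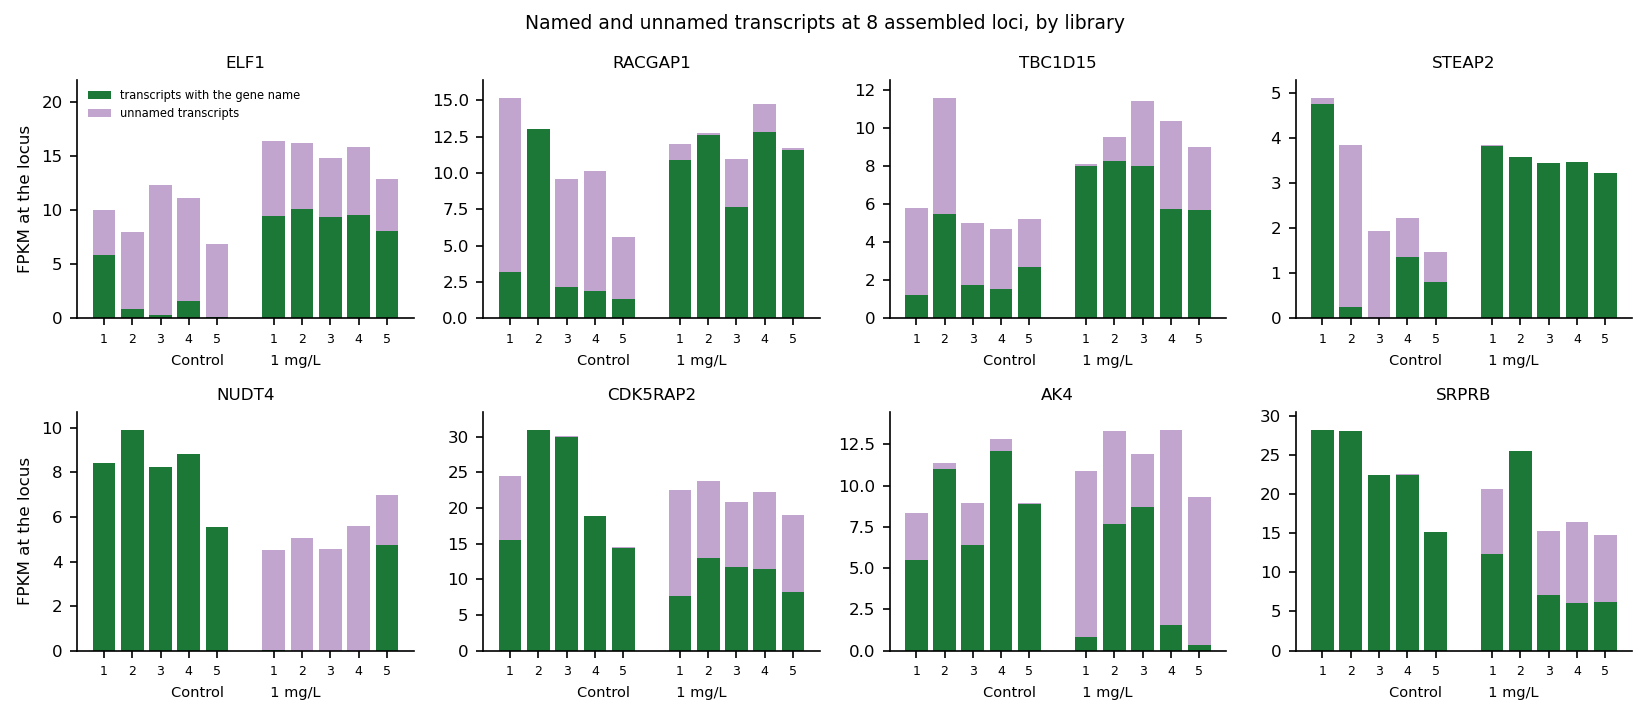
FPKM at 8 loci in each library, stacked from named transcripts (green) and unnamed assembled transcripts (purple), for control replicates 1 to 5 and 1 mg/L replicates 1 to 5. The coloured shares exchange between groups at NUDT4, SRPRB, RACGAP1 and STEAP2, while the stacked height changes less, and at ELF1 the stacked height is greater in every treated library.

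The same exchange was seen between 2 gene names among the most abundant RNAs. RN7SL1, the RNA of the signal recognition particle, was at 0 in every one of the 5 controls and in treated replicates 1, 4 and 5, and at 46856 and 24831 FPKM in treated replicates 2 and 3. AL139099.5, a name at the same position of chromosome 14 (49586579 to 49586878), was listed at 0 in those last 2 libraries and at 21909 to 36906 FPKM in the other 8. Their locus had 35386 ± 5526 FPKM in control and 36924 ± 7620 FPKM in treated libraries (SD, n = 5), a log2 difference of 0.05 (SE 0.27). The treated replicates with RN7SL1 had the higher share of structural RNAs given above. That share counts RN7SL1 and not AL139099.5, so it took in this locus only in those 2 libraries. RN7SK, the RNA that holds back the elongation factor P-TEFb, had 42572 ± 9739 FPKM in control and 42737 ± 6999 FPKM in treated libraries (SD, n = 5).

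The remaining results cover 35 gene lists with 572 distinct genes, of which 463 were tested. No member passed the adjusted threshold. Before adjustment, 2 were higher and 2 lower, 0.864% of the tested members beside 1.31% of all genes. The members' median log2 difference was 0.15, beside 0.14 over all genes, and 381 of the 463 had an interval inside a 2-fold change. Without control replicate 5 the members' median was -0.02.

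Among genes that respond to foreign compounds, 1 had an unadjusted p under 0.05. CYP1A1, a cytochrome P450 induced through the aryl hydrocarbon receptor, had 7.69, 3.76, 0.175, 0 and 0 FPKM in control and 0.28, 0, 0, 0 and 0.0542 FPKM in treated libraries. The 2 high values were both controls, and the other 3 controls overlapped the treated group. The log2 difference was -1.03 (SE 0.48, limma adjusted p = 0.963), and the locus sum differed by -0.90 (SE 0.37, limma adjusted p = 0.93). The 6 other tested members of the aryl hydrocarbon receptor list all had an interval inside a 2-fold change, among them ALDH3A1, an aldehyde dehydrogenase, at 121 ± 37.5 FPKM in control and 116 ± 11.9 FPKM in treated cells (SD, n = 5). Of the pregnane X receptor and constitutive androstane receptor genes, 9 of 14 were tested and 8 had an interval inside a 2-fold change. The median difference of this list was 0.05. UGT1A1 and UGT1A6, bilirubin and phenol glucuronosyltransferases that share exons, differed by 0.18 (SE 0.35) and 0.12 (SE 0.35). Of the glutathione S-transferases, 10 of 10 tested had an interval inside a 2-fold change, with a median of 0.18. GSTA1, the most abundant of them, had 385, 430, 412, 587 and 380 FPKM in control and 462, 481, 489, 586 and 494 FPKM in treated libraries, and the groups overlapped.

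Stress programmes gave medians close to that of all genes. The NRF2 genes (11 tested) had a median of 0.12, the antioxidant enzymes (16 tested) 0.16, the unfolded protein response genes (14 tested) 0.20 and the integrated stress response genes (10 tested) 0.18. HYOU1, a chaperone of the endoplasmic reticulum, had an unadjusted p under 0.05 in limma, with 22.6, 30.2, 6.58, 20.2 and 13.2 FPKM in control and 27.6, 29.9, 23.3, 27.6 and 26.2 FPKM in treated libraries. The treated values lay in the upper part of the control range (log2 difference 0.66, SE 0.31), and the locus sum differed by 0.12 (SE 0.26). DDIT3, the stress transcription factor CHOP, had 4.55 ± 2.77 FPKM in control and 7.01 ± 3.08 FPKM in treated cells (SD, n = 5). TXNRD1, thioredoxin reductase, ranged from 12.5 to 332 FPKM in control and from 19 to 384 FPKM in treated libraries, and its difference of 1.01 had a standard error of 0.94. The locus sum of TXNRD1 differed by 0.35 (SE 0.34). The p53 targets (16 tested) had a median of 0.13 and 14 intervals inside a 2-fold change. CDKN1A, the cell cycle inhibitor p21, had 150 ± 41 FPKM in control and 167 ± 20.0 FPKM in treated cells (SD, n = 5). All 17 tested cell cycle genes had an interval inside a 2-fold change, with a median of 0.15.

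Glycine is the amino acid from which glyphosate is formally derived, and the 13 tested genes of glycine and serine metabolism all had an interval inside a 2-fold change, with differences from -0.22 to 0.26 and a median of 0.10. GATM, which makes the creatine precursor from arginine and glycine, had 213, 275, 264, 330 and 200 FPKM in control and 205, 283, 294, 392 and 200 FPKM in treated libraries, nearly the same range. SHMT2, the mitochondrial serine hydroxymethyltransferase, had 32.3 ± 8.18 FPKM in control and 33.4 ± 4.43 FPKM in treated cells (SD, n = 5). All 18 tested genes of fatty acid oxidation had a difference above 0, beside 83.9% of all genes tested. Their median was 0.22, and 15 had an interval inside a 2-fold change. Without control replicate 5 their median was 0.10, beside -0.01 over all genes. In that fit 17 of the 18 were above 0, beside 45.3% of all genes. PPARA, the nuclear receptor that drives this pathway, had 3.31, 3.96, 2.22, 3.24 and 2.20 FPKM in control and 3.53, 2.67, 5.74, 8.00 and 4.12 FPKM in treated libraries, and the groups overlapped (log2 difference 0.49, SE 0.24). Lipogenesis (17 tested) had a median of 0.19, with SCD, the stearoyl-CoA desaturase, at 218 ± 57 FPKM in control and 245 ± 42.1 FPKM in treated cells (SD, n = 5). Cholesterol synthesis (20 tested) had a median of 0.09, bile acid genes (7 tested) 0.18, the urea cycle (7 tested) 0.08, gluconeogenesis (7 tested) 0.12, and glycolysis with HIF-1 targets (14 tested) 0.11. The 36 tested nuclear genes of respiratory complex I, the target of rotenone, all had an interval inside a 2-fold change, from -0.05 to 0.39.

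Of the secreted liver proteins, the acute-phase genes were less precise than most. Only 7 of the 17 tested acute-phase genes had an interval inside a 2-fold change, and the median standard error of the list was 0.58. LBP, the lipopolysaccharide-binding protein, had 86.9, 99.7, 92.4, 51.9 and 72.4 FPKM in control and 20.3, 10.1, 11.3, 158 and 119 FPKM in treated libraries. Treated replicates 1, 2 and 3 were below and replicates 4 and 5 above all controls, and the locus sum differed by -0.10 (SE 0.35). Of the complement and coagulation genes, F2, prothrombin, had an unadjusted p under 0.05. Its named transcripts had 1.16, 4.62, 2.35, 2.28 and 0.26 FPKM in control and 21.5, 2.70, 4.37, 1.68 and 5.33 FPKM in treated libraries, where replicate 1 of the treated group was far above the rest. The locus of F2 had 47.5 ± 8.23 FPKM in control and 58.6 ± 8.95 FPKM in treated libraries (SD, n = 5), a log2 difference of 0.30 (SE 0.26). The 8 tested apolipoproteins had a median of 0.26, and 0.20 without control replicate 5. APOE had 924, 940, 852, 1139 and 750 FPKM in control and 1088, 1104, 877, 1307 and 1297 FPKM in treated libraries, and the groups overlapped. Inflammatory genes (9 tested) had a median of -0.03 and interferon-stimulated genes (14 tested) 0.17. CXCL1, a neutrophil chemokine, had 9.48, 4.01, 3.56, 3.53 and 0.0845 FPKM in control and 9.51, 0.734, 0.271, 0.148 and 0.0774 FPKM in treated libraries. Replicate 1 was the highest in both groups, and the locus sum of CXCL1 differed by -0.04 (SE 0.38). The metallothioneins (3 tested) had a median of 0.10, retinoic acid genes (5 tested) 0.13, replication-dependent histones (19 tested) 0.20 and nuclear long noncoding RNAs (3 tested) 0.25. The ribosomal protein genes (75 tested) had a median of 0.16, and 61 intervals lay inside a 2-fold change.

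The mRNAs encoded by mitochondrial DNA had the median farthest from that of all genes, and wide intervals. The 10 tested had a median of -0.60, 8 of them below 0, a median standard error of 0.84, and 1 interval inside a 2-fold change. Without control replicate 5 their median was -1.09, beside -0.01 over all genes, and 2 of them, MT-ND1 and MT-ND4L, had an unadjusted p under 0.05 in limma. MT-ND4L is named here after its values were seen. MT-ND1, a subunit of complex I, had 5.65, 3.00, 2.46, 7.24 and 0.421 FPKM in control and 0, 1.92, 0.0873, 1.46 and 0 FPKM in treated libraries, with an overlap set by control replicate 5 (log2 difference -1.42, SE 0.67, limma adjusted p = 0.963). The locus sum of MT-ND1 has the same group means and SDs as the gene name, so it is no separate check (-1.42, SE 0.53, limma adjusted p = 0.93). MT-CO1, a subunit of cytochrome c oxidase, had 1506, 2009, 1411, 1223 and 193 FPKM in control and 429, 1771, 1487, 1790 and 357 FPKM in treated libraries. Low values were thus found in control replicate 5 and in treated replicates 1 and 5. MT-CO3 was listed at 0 in the same 3 libraries, at 8.12 FPKM in control replicate 2, and at 285 to 435 FPKM in the other 6. As a share of all FPKM, these mRNAs took 0.389% ± 0.168 in control and 0.372% ± 0.221 in treated libraries (SD, n = 5, 2-sided exact permutation test, p = 0.992).

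**Figure D5:**
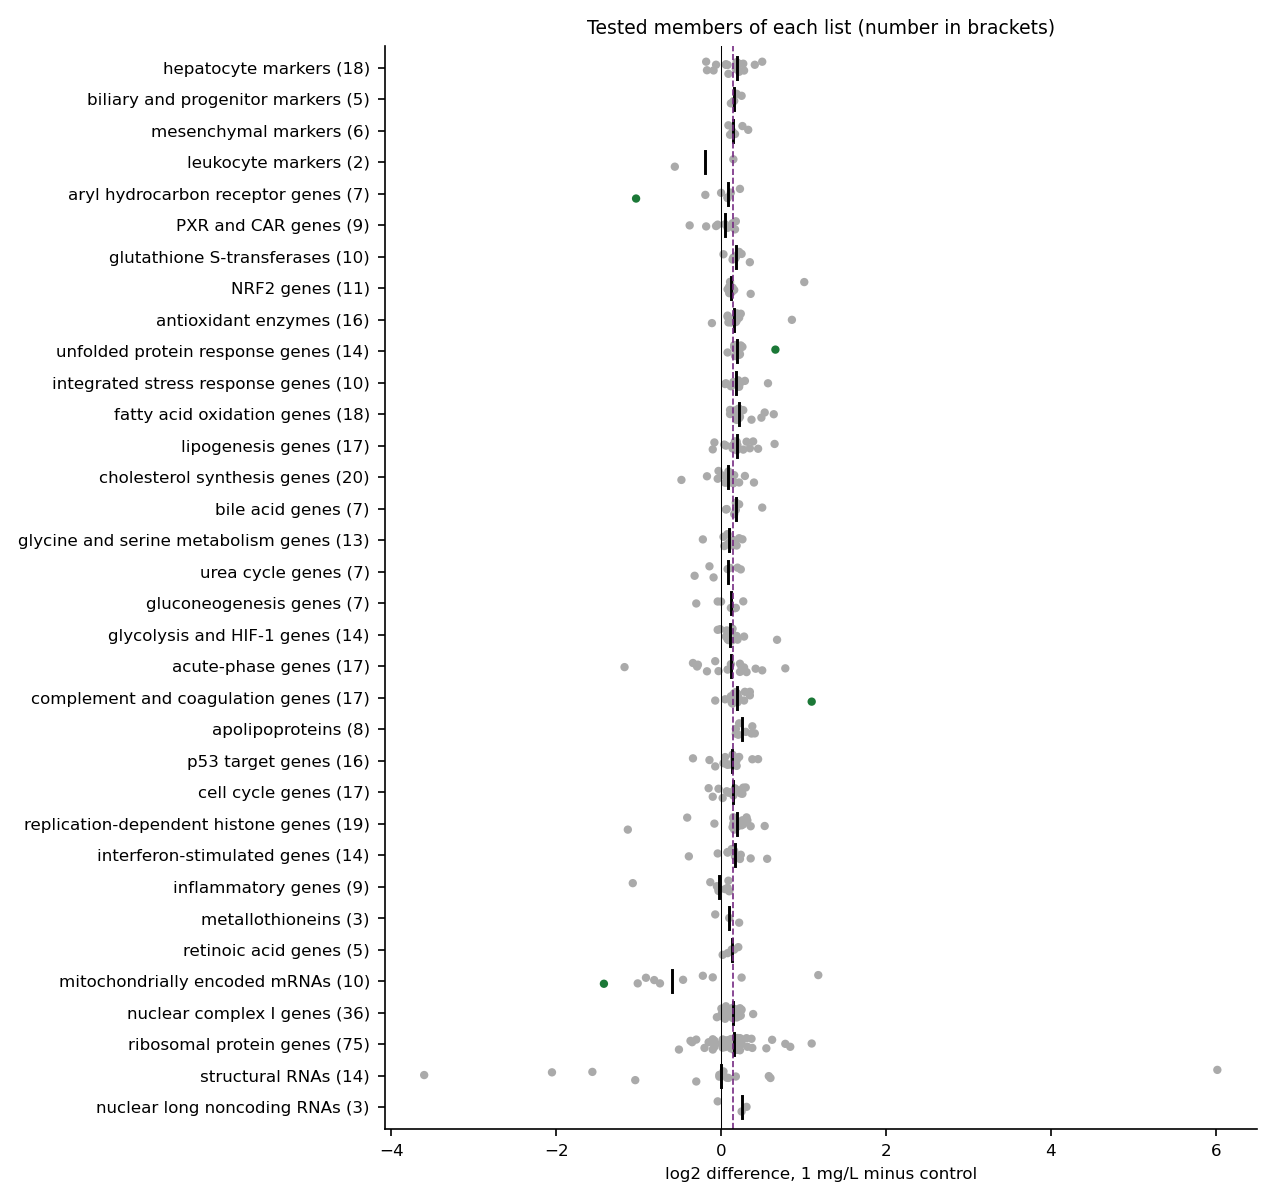
Log2 difference (1 mg/L minus control) of each tested member of 34 gene lists, with the number tested in brackets, the list median as a black bar and the median of all genes, 0.14, as a dashed line. The 4 members with an unadjusted p under 0.05 (F2, HYOU1, CYP1A1 and MT-ND1) are green, and the endothelial list had no tested member.

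Against the neighbouring doses, which share no library with the treated group, the 1 mg/L group again had no gene past the threshold. Compared with 10 µg/L, 0 of 9533 genes (0%) passed the adjusted threshold in limma and 129 (1.35%) had an unadjusted p under 0.05, with a smallest adjusted p of 0.872. Compared with 0.1 g/L, 0 genes (0%) passed and 105 (1.1%) had an unadjusted p under 0.05, with a smallest adjusted p of 0.449. ERO1A, an oxidase of the endoplasmic reticulum, had 6.31 ± 3.69 FPKM at 10 µg/L, 19.4 ± 1.39 FPKM at 1 mg/L, 8.43 ± 8.68 FPKM at 0.1 g/L and 17.4 ± 3.52 FPKM in control (SD, n = 5). It was named after its values were seen, as the gene of smallest p against 10 µg/L. APEH, a peptidase chosen in the same way for 0.1 g/L, had 11.1 ± 2.47 FPKM there and 29.8 ± 3.04 FPKM at 1 mg/L, with 22 ± 8.79 FPKM in control (SD, n = 5). The comparisons of the other groups with control share the same 5 control libraries. In them ELF1 differed from control by 1.56 at 10 µg/L, 1.10 at 0.1 g/L and 1.29 with Roundup, NUDT4 by -1.88, -2.63 and -2.25, RACGAP1 by 1.34, 1.54 and 1.26, and CDK5RAP2 by -0.83, -0.67 and -0.89. Set directly against the 1 mg/L group, ELF1 was 0.66 (SE 0.45) higher at 1 mg/L than at 10 µg/L, and NUDT4 differed by -0.78 (SE 0.62). Against 0.1 g/L, ELF1 was 1.12 (SE 0.45, limma adjusted p = 0.933) higher at 1 mg/L, and NUDT4 differed by -0.03 (SE 0.62).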

How the data were processed

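Total RNA depleted of ribosomal RNA was sequenced from directional libraries. Per the labels and methods, the authors aligned reads to GRCh38 with HISAT2 and assembled transcripts with StringTie and Ensembl release 89 (tool versions not given in the sources used here). They deposited FPKM per transcript, with no scaling between libraries beyond the library size in FPKM, and no counts. The depth behind each value is therefore not used here, and 5 libraries per group limit the precision. Of the deposited columns, 6 hold 1 value under 0 each and were handled as a score, with that value set to 0. FPKM were summed per gene name. Genes with a variance above 1 over the 25 libraries of the herbicide experiment were tested on log2(FPKM + 1) with limma 3.58.1 (lmFit, eBayes, R 4.3.3), all 5 groups in the fit (20 residual degrees of freedom), with Benjamini-Hochberg adjustment and a threshold of 0.05. The models were tested on simulated data. Library measures were compared by 2-sided exact permutation tests (scipy 1.17.1). Replicate numbers follow accession order, which is also the order of the runs of library numbers, and the main fit did not use them. What the runs stand for is not given in the labels. No pair of libraries had identical values.

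Named were the 8 genes of smallest p in each direction, in each list the 2 most abundant members and that of smallest p, the 5 most abundant genes, and the 5 genes each of largest and smallest standard error from 10 FPKM upwards. Some genes under this rule are not reported here. Members and lists were chosen with earlier results of these data known, and ERO1A, APEH and the locus sums after seeing the values. Alternatives covered the pseudocount, filters, scalings, models, libraries left out, a replicate block, single transcripts and locus sums. Coordinates are those of the deposited table (GRCh38).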

Additional observations from a re-analysis of the deposited data

Results flagged for a closer look

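In 264 groups of 5 values (library measures and named genes in each group), 22 had a highest or lowest value separated from the rest by more than Dixon's 95% critical value. Chance gives about 1 in 20 groups, and genes of one library are not independent. None of the 22 was tested further.

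Control replicate 5 was the lowest control for 8 of them. These were the share of FPKM in mitochondrially encoded mRNAs (0.0933%, group median 0.437%) and, as log2(FPKM + 1), ALDH1A1 (7.65, median 8.42), CYP51A1 (4.97, median 6.34), IFI44 (1.55, median 2.83), LUM (4.74, median 5.78), MT-CO1 (7.60, median 10.46), MT1E (2.95, median 4.15) and NDUFA8 (2.88, median 3.86). Control replicate 1 was highest on the second principal component (16.4, median -0.933) and for LYZ (3.32, median 1.80). Control replicate 4 was highest for APOC3 (8.13, median 7.16) and GSTA1 (9.20, median 8.69), and control replicate 3 for RABL6 (3.62, median 2.57).

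At 1 mg/L, replicate 4 had the highest summed log2 level of hepatocyte markers (135, median 127) and the highest GSTA1 (9.20, median 8.94) and COL3A1 (4.34, median 3.99), and the lowest TXNRD1 (4.32, median 7.79). Replicate 1 was lowest for ASL (3.23, median 5.09) and NDRG1 (3.55, median 4.97) and highest for CXCL1 (3.39, median 0.35) and CYP1A1 (0.36, median 0). Replicate 5 was highest for NUDT4 (2.53, median 0).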

How the results depend on the processing

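Of 24 alternatives, 22 left 0 genes past the adjusted threshold in limma at 1 mg/L against control. Leaving out each library in turn gave 0 to 2 genes: ELF1 (2.64) and STEAP2 (1.57) passed without control replicate 1 (adjusted p = 0.0106 each), and RACGAP1 (1.96) without control replicate 2 (adjusted p = 0.00166). Over the same fits the unadjusted p-values under 0.05 numbered 98 to 201, the median difference ran from -0.01 to 0.22, and 78.1 to 84.4% of intervals lay inside a 2-fold change.

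Beside the 125 unadjusted p-values under 0.05 and 84.6% of intervals inside a 2-fold change reported above, other settings gave 1218 and 95.7% with every gene above 0 (44434 genes), 747 and 87.4% with 75th percentile scaling, 308 and 88.4% with quantile normalization, 454 and 87.5% when scaled without structural and mitochondrial RNAs, 290 and 87.5% with a library-size term in an ordinary model, 378 and 89% with array weights, 191 and 86.3% with only the 10 libraries, 854 and 34.3% for single transcripts, and 44 and 97.2% for sums per assembled locus, a setting chosen after seeing the data. The share alone moved to 71.8% with a pseudocount of 0.1, 88.2% with a mean of at least 1 FPKM, 81.5% with an ordinary model and 83.8% with a robust trend. The scaling without structural RNAs left out RN7SL1 but kept AL139099.5, another name at the same locus. The cause of the differences between settings was not tested. Against 10 µg/L, 2 genes passed with every gene above 0 and 1 locus by locus sums. Against 0.1 g/L, 1 gene passed with array weights and 1 locus by locus sums.

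By more than 1 standard error, locus sums turned the direction of AK4 (0.21), AL139099.5 (0.05), CD68 (0.22) and TCF20 (0.09). The CD68 locus also holds EIF4A1, SENP3 and other gene names, so its sum is not that of CD68 alone. It had a mean of 153 FPKM in control and 173 FPKM in treated libraries, where CD68 had 1.6 and 0.559 FPKM. Of 2711 values of 118 named genes under the alternatives, 147, of 40 genes, changed sign, none of them a gene past the threshold. These were 23 without control replicate 5, 22 with the library-size term, 21 with quantile normalization, 17 with array weights, and 9 or fewer under each other setting. Apart from the 4 above, each moved by less than 1 standard error.

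The labels give no pairing. A replicate block by run of library numbers left 0 genes past the threshold, with 210 unadjusted and 87.4% of intervals inside a 2-fold change. Deviations of same-run pairs correlated at 0.00337 to 0.182, and in 4 of 5 runs the treated library correlated best with the control of its own run.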
